A study of Rattus norvegicus with 6 samples.

Results

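Receptors for GABA, glutamate, acetylcholine, noradrenaline and adrenaline, serotonin, dopamine and histamine were followed in rat sciatic nerve after CCI (chronic constriction injury), a model of neuropathic pain made by loosely tying off the nerve. They are the 100 rows, of 29884 in the count table, whose symbols name such a receptor or receptor subunit. Rows were picked by symbol, but the receptor families were chosen with earlier results of these data known. Of these, 37 averaged 0.5 CPM or more in at least 1 group and form the described set, where CPM is the count scaled to a common library size after TMM normalisation (trimmed mean of M-values). Just inside that limit stood Gria2 and Gabrr2, at 0.737 and 0.775 CPM in their higher group, and just outside it Chrne and Grin1, at 0.479 and 0.378 CPM. Of the other 63 members, 14 had no count in any library and none exceeded 25 counts in a library.

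These receptors detect small transmitter molecules at the cell surface. Some are ion channels put together from subunits that different genes encode, such as GABA-A, AMPA, kainate, NMDA, nicotinic and 5-HT-gated channels. Many such channels, though not all, need several genes to be on in the same cell. The others couple to G proteins, among them GABA-B, muscarinic, adrenergic, dopamine, histamine and most serotonin receptors. A peripheral nerve holds few synapses, but Schwann cells, vessel walls, immune cells, fat cells and the axons themselves are all known to carry receptors of this kind.

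The conduit group held 3 libraries from nerve of wild type rats with CCI that were treated with PLLA-PCL-RVC, described in the series as a piezoelectric conduit that carries ropivacaine, a local anaesthetic. The untreated group held 3 libraries from nerve of wild type rats with CCI and no conduit. The conduit and its drug came together, so their effects cannot be told apart. The labels give no time after injury and no animal age, and do not say whether each library came from its own animal, so each p-value reflects library-to-library spread, which may be technical. The batch numbers in the labels are 3, 4 and 5 for the conduit libraries and 1, 1 and 2 for the untreated ones, so batch and treatment cannot be told apart.

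Total counts ran from 41524084 to 42225086 in the conduit libraries and from 38401951 to 41879724 in the untreated ones. Receptor members took 0.0514% to 0.0545% of the counts in conduit libraries and 0.0260% to 0.0293% in untreated libraries. Gabbr1, a GABA-B receptor gene, alone had 16184, 15664 and 14307 counts in conduit libraries and 5399, 7445 and 5730 counts in untreated libraries. Most of the difference in share was therefore that of Gabbr1 and not of the members at large. Markers of several cell types moved with treatment. The summed CPM of 10 myelinating Schwann cell markers was 160310 to 208320 in conduit and 10880 to 26552 in untreated libraries, with none of the 10 at 0, and all 10 rose. The sum of 12 macrophage markers was 478 to 875 CPM in conduit and 3108 to 3830 CPM in untreated libraries, with none at 0, and all 12 fell. The part of these shifts in the receptor results was not tested. In bulk nerve, fewer cells of a type and less RNA per cell cannot be told apart. Untreated replicate 1 stood apart in 14 skeletal muscle markers, whose sum was 23.98 to 25.9 CPM in conduit libraries, against 13623, 106 and 14.6 CPM in untreated replicates 1, 2 and 3; of the 12 that could be tested, 1 rose and 10 fell. Of 11 T and NK cell markers 0 rose and 10 fell, and of 10 endothelial markers 0 rose and 4 fell. Of 12 fibroblast and perineurial markers 6 rose and 1 fell. The list of 12 nonmyelinating and repair Schwann cell markers pools different cell states and had no single direction: 6 rose and 5 fell. Sensory neuron cell bodies lie outside the nerve, and Rbfox3, a marker of neuronal nuclei, was at 0.157 to 0.480 CPM in conduit and 0.138 to 0.242 CPM in untreated libraries, too low to test. The 12 neuronal markers summed to 49.4 to 67.7 CPM in conduit and 56.7 to 194 CPM in untreated libraries, and of the 10 tested 2 rose (Snap25 and Calca) and 3 fell (Nefl, Nefm and Pou4f1). Over all genes tested 50.2% passed, 24% higher and 26.2% lower. The shares that passed in the endothelial (40%) and neuronal (50%) lists did not exceed that background.

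Receptor genes that differed were mostly higher in conduit nerves. Of the 36 described members that could be tested, 17 rose, 4 fell and 15 did not pass (edgeR quasi-likelihood F test, Benjamini-Hochberg adjusted p under 0.05 over all 15464 genes tested). Over all genes tested 50.2% passed, 24% higher and 26.2% lower, so the 21 of 36 members that passed (58.3%) lie near the background. The 17 higher calls are to be read against 24% and the 4 lower calls against 26.2%. With scaling by library totals alone the members split into 15 higher and 6 lower, while all genes split into 2293 higher and 6553 lower, against 3711 and 4050 with TMM. The median log2 fold change (conduit minus untreated) was 1.14 over the 36 members and -0.0425 over all genes tested. A receptor that is on in 1 group alone enters the 36 through that group, so this median is a description. The libraries of the groups did not overlap for 22 of the 36, and for 61.7% of all genes tested. Chrnd could not be tested because it had counts in 1 library only, and 4 members under 0.5 CPM that could be tested (Gabbr2, Grin1, Chrnb2 and Chrne) did not pass.

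**Figure D1:**
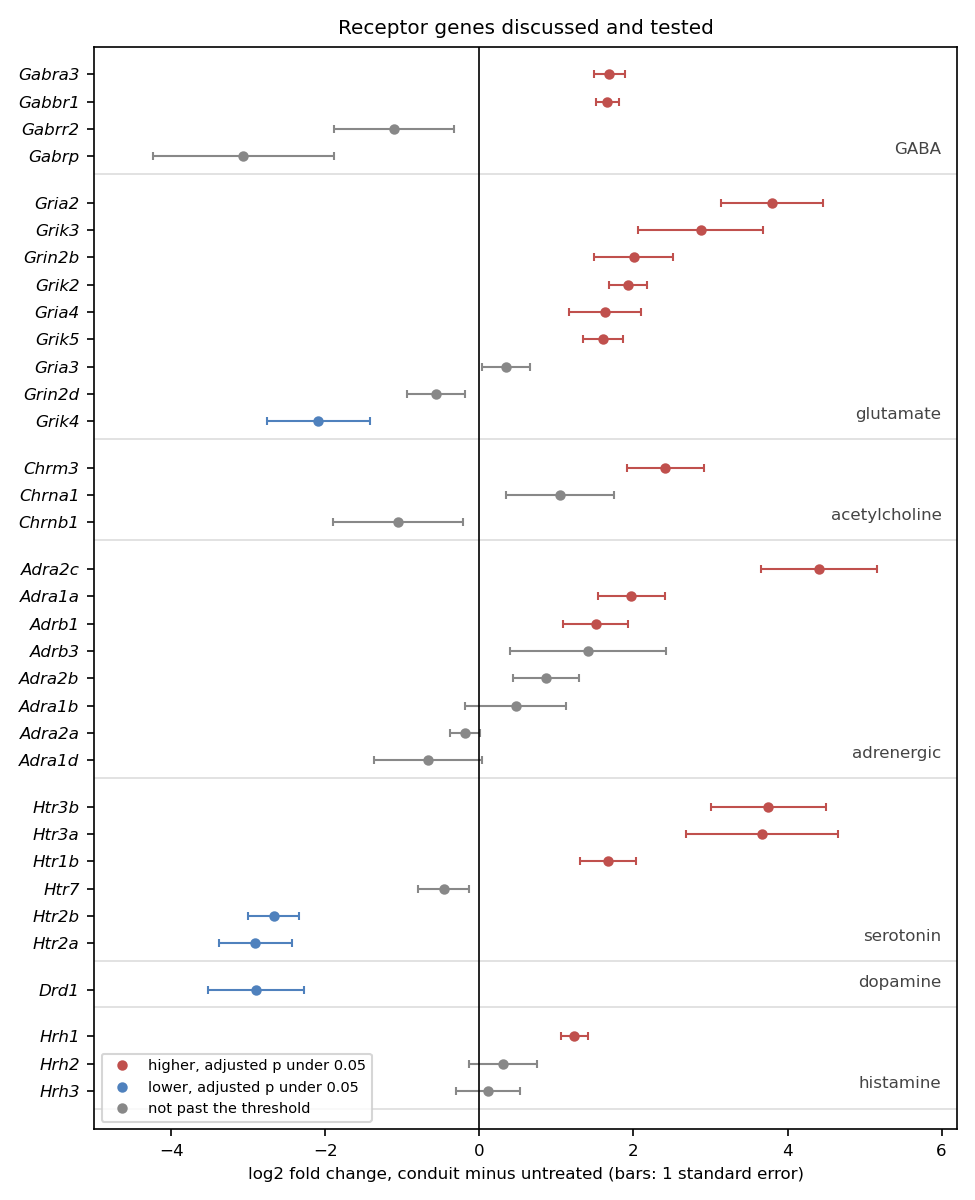
Log2 fold change of conduit over untreated nerves for 34 of the 36 receptor genes described and tested, by transmitter, with bars of 1 standard error from edgeR. Red points (16 genes) rose and blue points (4 genes) fell at an adjusted p under 0.05, and grey points (14 genes) did not pass.

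Gabbr1, which encodes the ligand-binding subunit of the GABA-B receptor, was by far the most abundant of these genes. It had 445, 442 and 374 CPM in conduit replicates 1, 2 and 3, against 117, 150 and 132 CPM in untreated replicates 1, 2 and 3. Every conduit library lay far above every untreated one. It rose 3.16-fold (log2 fold change 1.66 ± 0.15 SE, edgeR adjusted p = 0.000193). On the deposited FPKM scale (per kilobase of gene, by library total) its level was 79.7 ± 5.43 in conduit and 33.1 ± 5.19 in untreated nerves (SD, n = 3 each), and it made up 64.2% to 70.2% of the summed FPKM of all members in conduit libraries and 42.98% to 56.2% in untreated libraries. A working GABA-B receptor also needs the subunit of Gabbr2, which brings it to the surface and couples to the G protein. Gabbr2 had 13, 17 and 9 counts in conduit libraries and 10, 5 and 10 counts in untreated libraries, or 0.0542 ± 0.0171 FPKM in conduit and 0.0361 ± 0.0133 FPKM in untreated nerves. Its log2 fold change was 0.96 ± 0.53 (edgeR adjusted p = 0.168), and the FPKM of Gabbr1 was 1145 to 1976 times that of Gabbr2 in conduit and 671 to 1851 times in untreated libraries.

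The promoter window of Gabbr1 (RefSeq, build GRCr8, 250 bases before to 50 after the gene's start) is shown because this gene holds most of the receptor message in conduit nerve. Capitals mark the GC box GGGCGG, a short motif of many broadly active promoters, on either strand.
Gabbr1, chr20:1499187-1499486, minus strand: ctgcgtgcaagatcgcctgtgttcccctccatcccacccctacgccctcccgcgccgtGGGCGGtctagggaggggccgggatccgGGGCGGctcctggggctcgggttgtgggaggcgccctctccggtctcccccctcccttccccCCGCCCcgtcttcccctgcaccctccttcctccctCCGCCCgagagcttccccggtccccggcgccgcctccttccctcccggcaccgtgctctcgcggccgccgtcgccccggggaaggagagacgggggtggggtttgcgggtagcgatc
It holds 4 GC boxes. The motif occurs in 33.1% of 33469 promoters of this length, and in 11 of the 26 described members that have a promoter in the table. A match describes these letters and not a bound site.

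Of the GABA-A channel subunits, 1 rose. Gabra3, the alpha-3 subunit, had 18.1, 13.7 and 13.1 CPM in conduit libraries, against 3.91, 4.76 and 5.24 CPM in untreated libraries. The groups did not overlap, and the rise was 3.22-fold (log2 1.69 ± 0.21, edgeR adjusted p = 0.000606). The beta and gamma subunits that usually complete the channel were close to the detection limit. All 6 of them together had 13, 11 and 7 counts in conduit libraries and 18, 10 and 3 counts in untreated libraries. Gabrp, the pi subunit known from epithelia, had 0, 17 and 1 counts in conduit libraries and 25, 125 and 51 counts in untreated libraries. These groups did not overlap, but at -3.06 ± 1.17 it did not pass (edgeR adjusted p = 0.0630). In the RefSeq table it overlaps LOC108352198, which rose (3.96 ± 0.26). Gabrp passed with DESeq2 (adjusted p = 0.0235), with the replicate block (0.0164), with library totals (0.0380), with limma on filtered log2(FPKM + 1) (0.0367) and log2(FPKM + 0.1) (0.0143), and without conduit replicate 2, where its log2 fold change was -6.43 (edgeR adjusted p = 0.00894). Under the other alternatives it did not pass, and it was weakest without untreated replicate 2 (-2.34, 0.167), conduit replicate 1 (-2.46, 0.128) or conduit replicate 3 (-2.52, 0.154). Gabrr2, a rho subunit known from retina, was at -1.11 ± 0.78 (edgeR adjusted p = 0.269), and at -2.40 (0.0338) without conduit replicate 3.

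Ionotropic glutamate receptor genes made up 10 of the 37 described members, and 7 of the 10 rose, 1 fell and 2 did not pass. Over all genes tested, 24% rose and 26.2% fell. Of the glutamate receptor genes, the kainate subunits Grik5 and Grik2 were the most abundant per length. Grik5, an auxiliary-type subunit that works only together with Grik1, Grik2 or Grik3 products, had 30.9, 32.3 and 31.7 CPM in conduit libraries, against 10.9, 6.58 and 13.8 CPM in untreated libraries. Grik2, a main channel-forming subunit, had 11.2, 11.8 and 11.9 CPM in conduit libraries, against 2.85, 2.26 and 4.02 CPM in untreated libraries. Both were nearly level across the conduit libraries and did not overlap between groups. Grik5 rose 3.04-fold (log2 1.60 ± 0.26, edgeR adjusted p = 0.00187) and Grik2 3.81-fold (1.93 ± 0.25, 0.000748). Per length, Grik5 was 1.68 to 1.75 times Grik2 in conduit and 1.84 to 2.40 times in untreated libraries.

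The other kainate subunits were less even. Grik3 had 5.66, 1.21 and 13.2 CPM in conduit libraries, against 0.606, 1.41 and 0.713 CPM in untreated libraries. Conduit replicate 2 lay below untreated replicate 2, so the groups overlapped. It rose with all libraries (2.87 ± 0.81, edgeR adjusted p = 0.0212) but did not pass without conduit replicate 3 (1.95, 0.0650), untreated replicate 1 (0.0605) or untreated replicate 3 (0.0643), nor with the replicate block (0.0789) or any of the limma alternatives (0.0894 to 0.189). Grik4, the other auxiliary-type subunit, went the opposite way from Grik5. It had 3, 4 and 15 counts in conduit libraries and 24, 63 and 33 counts in untreated libraries (-2.09 ± 0.67, edgeR adjusted p = 0.0346). That call was lost without conduit replicate 1 (0.105) or 2 (0.116), or without untreated replicate 2 (0.0992) or 3 (0.0618), and without conduit replicate 3 the value was -3.05.

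Among the AMPA subunits, Gria4 had 2.47, 6.81 and 2.67 CPM in conduit libraries, against 0.973, 1.55 and 1.31 CPM in untreated libraries. The groups did not overlap, but conduit replicate 2 stood well above the other conduit libraries. The rise of 1.64 ± 0.47 (edgeR adjusted p = 0.0220) did not pass without conduit replicate 2 (1.03, 0.0749) or without untreated replicate 1 (0.0619) or 3 (0.0542), nor with library totals (0.0520) or any of the limma alternatives (0.0741 to 0.156). Gria2, the subunit that makes AMPA channels tight to calcium, was low, with 12, 24 and 46 counts in conduit libraries and 3, 2 and 2 counts in untreated libraries (3.80 ± 0.66, edgeR adjusted p = 0.00284). It did not pass with limma on unfiltered log2(FPKM + 1) (0.0612). Gria3 had 2.69, 4.04 and 2.62 CPM in conduit libraries and 2.85, 2.64 and 1.84 CPM in untreated libraries, and did not pass (0.35 ± 0.31, edgeR adjusted p = 0.382). Its sign turned with library totals (-0.04).

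Among the NMDA subunits, Grin2b, which binds glutamate, had 16.1, 9.43 and 5.63 CPM in conduit libraries, against 1.73, 1.70 and 4.35 CPM in untreated libraries. All conduit libraries were above all untreated ones, the closest being conduit replicate 3 and untreated replicate 3. It rose 4.01-fold (log2 2.00 ± 0.51, edgeR adjusted p = 0.0144), or by 2.60 without untreated replicate 3. It did not pass with limma on log2(FPKM + 1), filtered (0.0598) or not (0.0849). Grin1, the glycine-binding subunit that every NMDA channel needs, had 7, 8 and 10 counts in conduit libraries and 19, 21 and 13 counts in untreated libraries. It did not pass (-0.73 ± 0.43, edgeR adjusted p = 0.190), except with limma on unfiltered log2(FPKM + 1) (-0.07, 0.0189), and per length Grin2b was 3.78 to 14.7 times Grin1 in conduit and 0.702 to 2.55 times in untreated libraries. Grin2d was at -0.57 ± 0.38 and did not pass (edgeR adjusted p = 0.250). In the RefSeq table it overlaps Grwd1, which fell (-0.93 ± 0.15). None of the 8 metabotropic glutamate receptors was described: Grm8 had the highest mean at 0.147 CPM, and 2 of the 8 had no count at all.

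**Figure D2:**
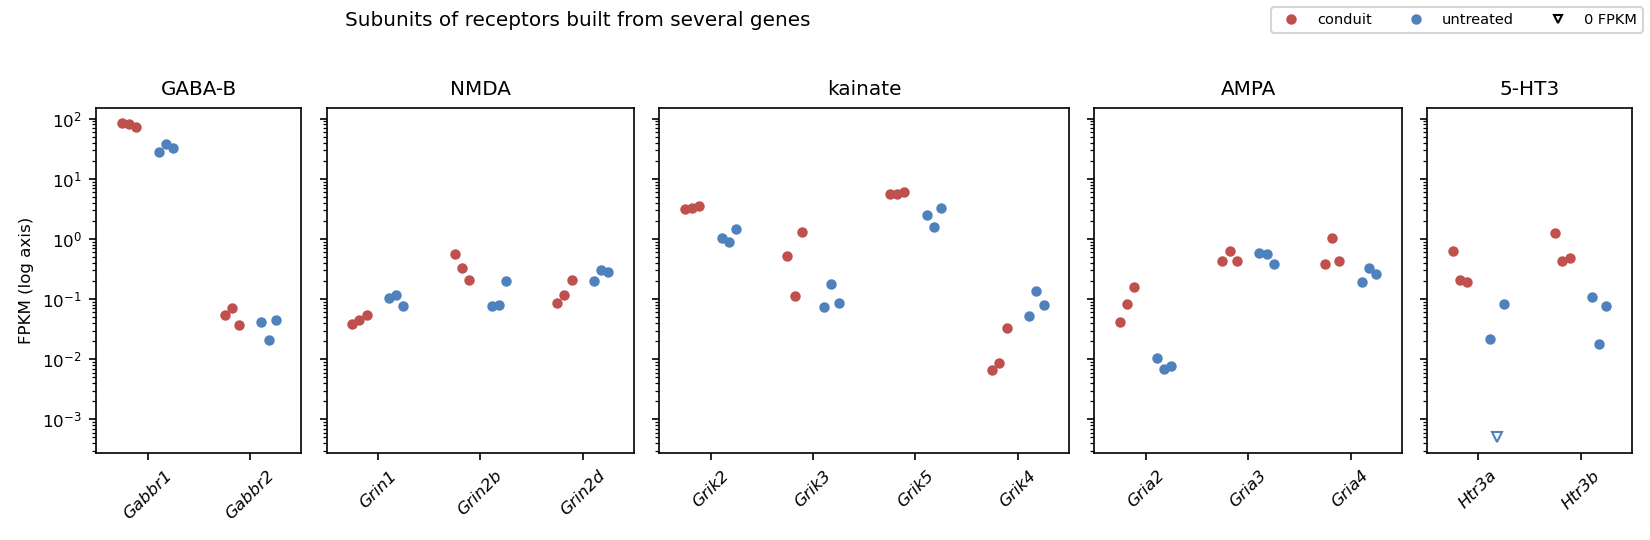
Deposited FPKM (log axis) of subunits that combine into 1 receptor, with 1 point for each library, conduit left of untreated within each gene, and an open triangle for a library at 0. Gabbr1 lies above 28 FPKM in every library while its partner Gabbr2 lies under 0.1, Grik2 and Grik5 rose together, and Grin1 and Grin2b stand in opposite order in the conduit libraries and in 2 untreated libraries.

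In the acetylcholine class, Chrm3, a muscarinic receptor that signals through calcium, rose. It had 27, 54 and 33 counts in conduit libraries, against 13, 8 and 6 counts in untreated libraries (2.41 ± 0.50, edgeR adjusted p = 0.00589), with no overlap. It did not pass with limma on filtered log2(FPKM + 1) (0.0579). The other 4 muscarinic receptors stayed at or below 0.294 CPM in both groups. The 11 neuronal nicotinic subunits together had 49, 43 and 27 counts in conduit libraries and 32, 26 and 9 counts in untreated libraries, and Chrna4 had the highest mean of them, 0.325 CPM.

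The 5 genes of the muscle-type nicotinic receptor are described whatever their level, since muscle transcripts differed so widely between libraries. Chrnd, the delta subunit, had 0 counts in every conduit library and 278, 0 and 0 counts in untreated libraries. Chrng, the gamma subunit of fetal and denervated muscle, had 0 counts in every conduit library and 24, 1 and 0 counts in untreated libraries. Chrnb1, the beta subunit, had 25, 32 and 27 counts in conduit libraries and 178, 21 and 22 counts in untreated libraries. All of these peaked in the library with 13623 CPM of muscle markers. Without it Chrnb1 was at 0.72 (edgeR adjusted p = 0.242), against -1.05 ± 0.85 with all libraries (0.331), so its sign rested on untreated replicate 1. Chrna1, the acetylcholine-binding alpha subunit, had 13, 55 and 68 counts in conduit libraries and 46, 13 and 23 counts in untreated libraries (1.05 ± 0.70, edgeR adjusted p = 0.248). It was highest in conduit replicate 3, and within the untreated group in replicate 1, without which it was at 1.64 (0.131). Chrne, the epsilon subunit of adult muscle, had 13, 16 and 10 counts in conduit libraries and 25, 17 and 24 counts in untreated libraries (-0.42 ± 0.43, edgeR adjusted p = 0.450). In the RefSeq table Chrnb1 overlaps Zbtb4, which rose (1.16 ± 0.15), and the sources used here do not say whether strand was kept.

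**Figure D3:**
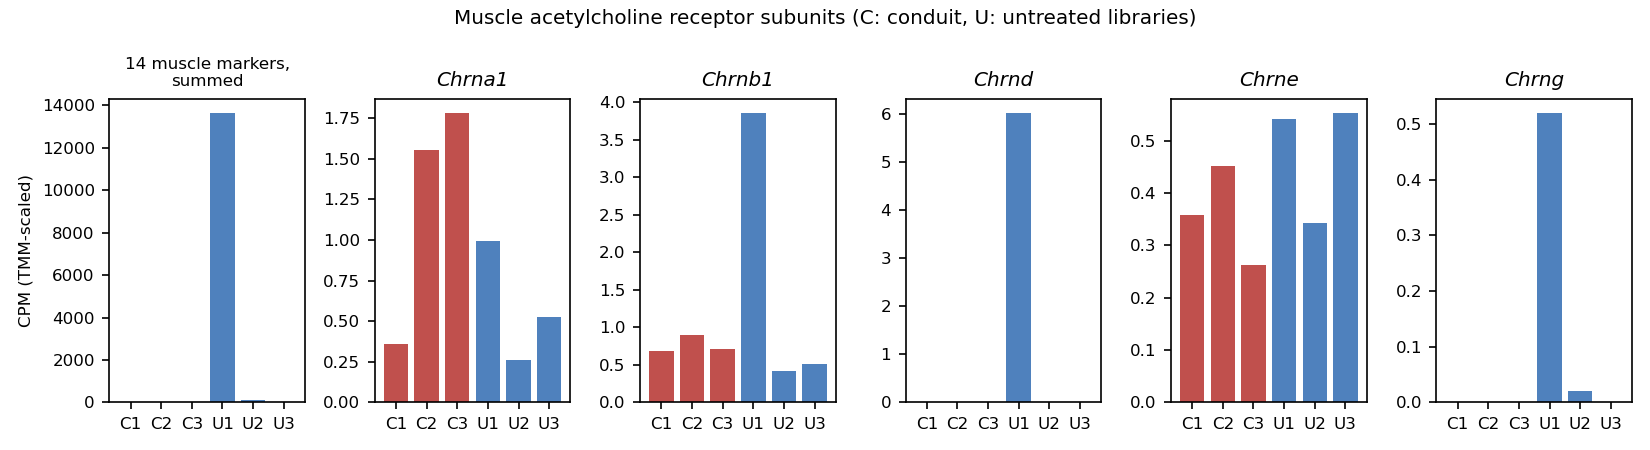
CPM in each library for the sum of 14 skeletal muscle markers and for the 5 muscle acetylcholine receptor subunits, with conduit libraries (C1 to C3) left of untreated libraries (U1 to U3) and a separate axis from 0 in each panel. Chrnb1, Chrnd and Chrng share the peak of the muscle markers in untreated replicate 1, while Chrna1 is highest in conduit replicate 3 and Chrne in untreated replicate 3.

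The promoters of 3 of these subunits (RefSeq, build GRCr8, same window) are shown because myogenic transcription factors are known to act on such genes through E-boxes. Capitals mark every E-box, CANNTG, which reads the same on both strands in this notation.
Chrna1, chr3:78877304-78877603, minus strand: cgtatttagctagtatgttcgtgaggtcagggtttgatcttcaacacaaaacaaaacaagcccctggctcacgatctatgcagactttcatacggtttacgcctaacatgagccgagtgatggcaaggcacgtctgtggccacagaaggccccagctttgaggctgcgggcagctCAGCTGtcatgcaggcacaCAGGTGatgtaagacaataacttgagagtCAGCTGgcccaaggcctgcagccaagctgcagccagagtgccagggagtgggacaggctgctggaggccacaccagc
Chrnd, chr9:95310066-95310365, plus strand: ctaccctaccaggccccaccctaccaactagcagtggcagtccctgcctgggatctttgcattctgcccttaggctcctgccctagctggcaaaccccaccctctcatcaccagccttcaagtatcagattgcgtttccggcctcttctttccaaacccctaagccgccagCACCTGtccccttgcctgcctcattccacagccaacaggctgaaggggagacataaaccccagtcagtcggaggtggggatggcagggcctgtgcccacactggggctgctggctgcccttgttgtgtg
Chrng, chr9:95325734-95326033, plus strand: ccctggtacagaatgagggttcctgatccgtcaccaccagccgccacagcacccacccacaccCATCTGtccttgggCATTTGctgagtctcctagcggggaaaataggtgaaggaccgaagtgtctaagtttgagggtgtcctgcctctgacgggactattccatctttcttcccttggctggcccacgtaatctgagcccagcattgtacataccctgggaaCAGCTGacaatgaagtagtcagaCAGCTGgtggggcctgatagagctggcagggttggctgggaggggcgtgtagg
The windows hold 3, 1 and 4 E-boxes. The general motif is common, in 72.1% of all promoters and 14 of the 26 described ones. The form CAGCTG, which is part of it, is in 15.1% of all promoters and 6 of the 26 described ones. Those 6 are Chrna1, Chrnb1, Chrm3, Adra2a, Adra2c and Gria4, so the form is not particular to muscle subunits. It is also in the windows of Chrne and Chrng, but not in that of Chrnd.

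Of the 9 adrenergic receptors, all of which are in the described set, 3 rose, 0 fell and 6 did not pass, against 24% higher and 26.2% lower over all genes. The alpha-2 receptors, which lower cyclic AMP, differed among themselves. Adra2c had 4.51, 2.57 and 2.46 CPM in conduit libraries, against 0.0433, 0.0605 and 0.345 CPM in untreated libraries, a wide gap. It rose 21.2-fold (log2 4.41 ± 0.76, edgeR adjusted p = 0.00262). The log2 value was 3.98 without untreated replicate 1 and 5.85 without untreated replicate 3. Its untreated libraries held only 2, 3 and 15 counts, so the size of the fold is uncertain. Adra2a, the most abundant adrenergic receptor, had 26.0, 17.1 and 22.3 CPM in conduit libraries and 29.3, 24.1 and 21.2 CPM in untreated libraries. Its groups overlapped and it did not pass (-0.19 ± 0.20, edgeR adjusted p = 0.449), though with library totals it did (-0.57, 0.0423), as with limma on filtered log2(FPKM + 1) (0.0432) and log2(FPKM + 0.1) (0.0413). Adra2b was at 0.86 ± 0.43 (edgeR adjusted p = 0.136), with the groups not overlapping.

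The alpha-1 receptors, which raise calcium and contract vessel walls, were also unlike each other. Adra1a had 6.46, 9.75 and 8.17 CPM in conduit libraries, against 1.38, 1.29 and 3.54 CPM in untreated libraries. With no overlap it rose 3.92-fold (log2 1.97 ± 0.43, edgeR adjusted p = 0.00763, and 2.60 without untreated replicate 3). Adra1b (0.47 ± 0.65, edgeR adjusted p = 0.579) and Adra1d (-0.67 ± 0.71, 0.460) did not pass, and Adra1d changed sign without untreated replicate 3 (0.41), its highest library. For comparison, 12 smooth muscle and pericyte markers summed to 1618 to 2085 CPM in conduit and 1876 to 2671 CPM in untreated libraries, with none at 0; 1 of the 12 rose and 2 fell. Their part was not tested.

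Of the beta receptors, which raise cyclic AMP, Adrb1, the main one of heart, had 28, 57 and 34 counts in conduit libraries and 16, 20 and 17 counts in untreated libraries and rose (1.51 ± 0.42, edgeR adjusted p = 0.0209). That call did not hold without conduit replicate 2 (0.0911), untreated replicate 1 (0.0642) or untreated replicate 3 (0.0536), with library totals (0.0517), or with any of the limma alternatives (0.0556 to 0.0761). Adrb3, the beta receptor of fat cells in rodents, had 27, 16 and 196 counts in conduit libraries and 11, 29 and 68 counts in untreated libraries. Its highest library in each group was also that group's highest in 10 adipocyte markers, which summed to 592, 746 and 2808 CPM in conduit libraries and 555, 835 and 1564 CPM in untreated libraries, with none at 0 and 2 of the 10 higher. At 1.41 ± 1.02 Adrb3 did not pass (edgeR adjusted p = 0.283), and without conduit replicate 3 it was at -0.37.

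Serotonin receptors moved in both directions: of 6 described, 3 rose and 2 fell, against 24% higher and 26.2% lower over all genes. Htr2b, a receptor that signals through calcium and is known from fibroblasts, vessels and macrophages, had 1.02, 1.38 and 1.83 CPM in conduit libraries, against 8.56, 6.62 and 11.9 CPM in untreated libraries. Htr2a, its close relative and the receptor that activates platelets, had 0.357, 0.819 and 0.969 CPM in conduit libraries, against 3.68, 7.81 and 4.69 CPM in untreated libraries. Every conduit library was well below every untreated library for both. Htr2b was 6.37-fold lower (log2 -2.67 ± 0.33, edgeR adjusted p = 0.000651) and Htr2a 7.51-fold lower (-2.91 ± 0.47, 0.00202) in conduit nerves. Htr2b lies within Psmd1 in the RefSeq table, a proteasome gene at -0.38 ± 0.16 that did not pass (edgeR adjusted p = 0.0913).

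Htr1b, a receptor that lowers cyclic AMP and sits on sensory fibres and vessels as a target of migraine drugs, went up instead. It had 16.8, 22.1 and 14.9 CPM in conduit libraries, against 5.08, 3.13 and 8.72 CPM in untreated libraries. The groups did not overlap, and the rise was 3.18-fold (log2 1.67 ± 0.37, edgeR adjusted p = 0.00781). The genes of the serotonin-gated ion channel rose as a pair from very low levels. Htr3a, whose product can form the channel alone, had 59, 19 and 18 counts in conduit libraries and 2, 0 and 7 counts in untreated libraries (3.67 ± 0.99, edgeR adjusted p = 0.0178). Htr3b, whose product needs Htr3a, had 71, 24 and 27 counts in conduit libraries and 6, 1 and 4 counts in untreated libraries (3.75 ± 0.74, edgeR adjusted p = 0.00490). Conduit replicate 1 was the highest for both. Without it Htr3a did not pass (2.90, 0.0659) while Htr3b did (3.09, 0.0171). Htr3a also did not pass without untreated replicate 1 (0.0541) or with limma on unfiltered log2(FPKM + 1) (0.0771), and ranged up to 5.19 without untreated replicate 3 and down to 3.08 without untreated replicate 2. Htr7, a receptor that raises cyclic AMP, was at -0.46 ± 0.33 (edgeR adjusted p = 0.277), and passed only with limma on unfiltered log2(FPKM + 1) (0.0413).

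**Figure D4:**
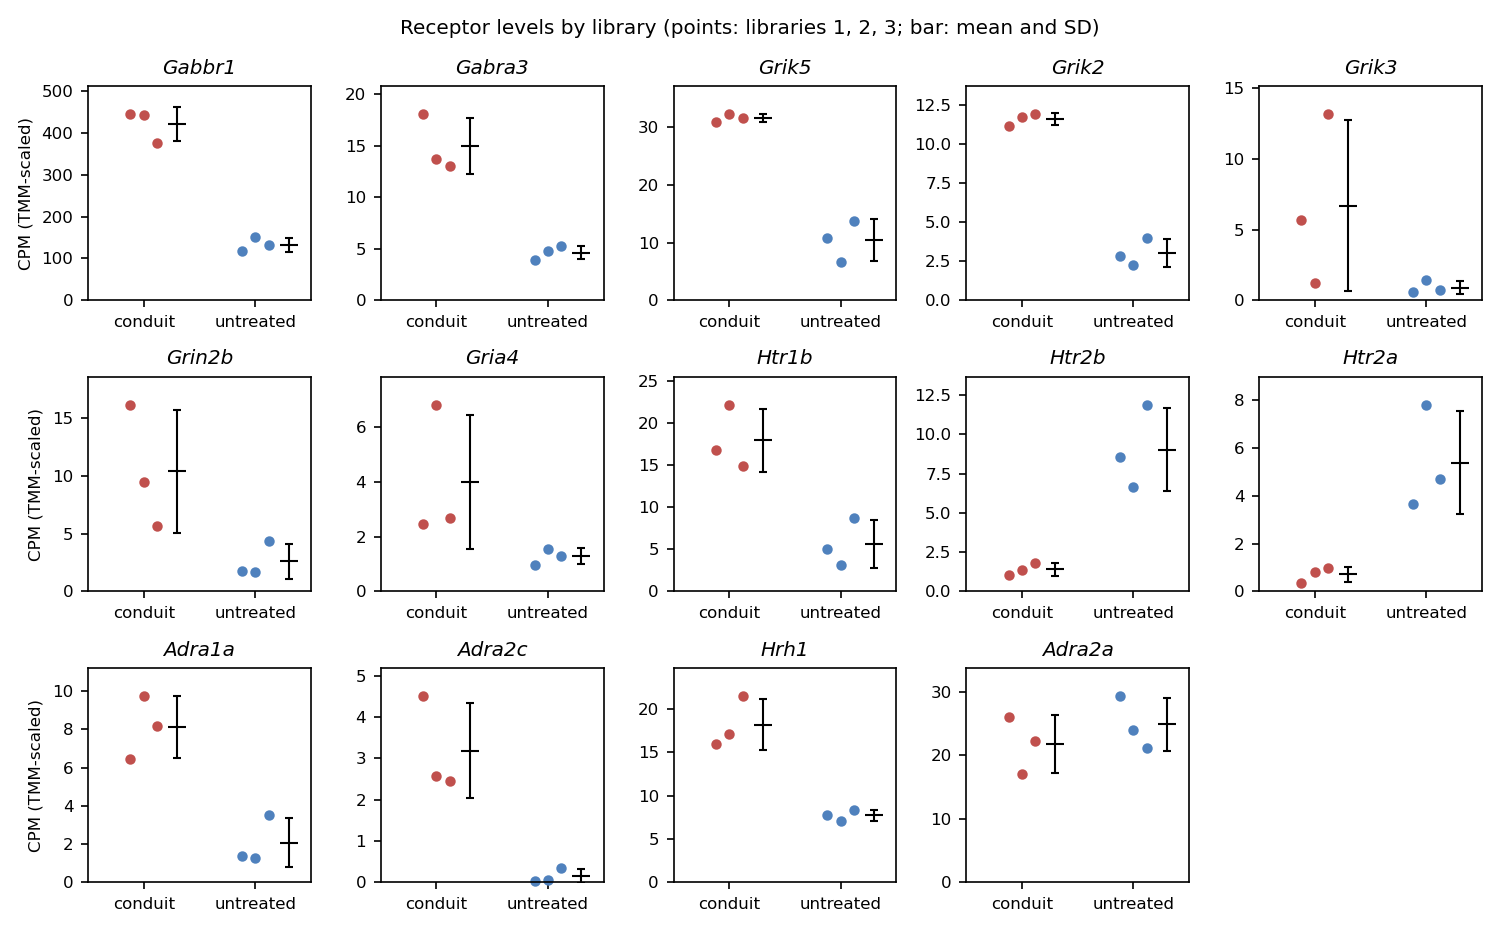
CPM of 14 receptor genes in each library, with conduit left of untreated, points for replicates 1, 2 and 3 and a bar for the mean and SD of each group, on a separate axis from 0 in each panel. Htr2a and Htr2b lie lower in every conduit library, Adra2a overlaps between groups, and the others are higher in conduit nerves, with an overlap in Grik3 alone.

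Drd1, the dopamine receptor that raises cyclic AMP, was the only dopamine receptor described. It had 2, 8 and 2 counts in conduit libraries, against 38, 32 and 46 counts in untreated libraries. It was 7.47-fold lower in conduit nerves (log2 -2.90 ± 0.63, edgeR adjusted p = 0.00723, and -3.88 without conduit replicate 2). Drd4, next in level among the dopamine receptors, had 0, 4 and 5 counts in conduit libraries and 3, 3 and 0 counts in untreated libraries, too few to test. Of the histamine receptors, Hrh1, which signals through calcium in vessel walls and nerve endings, had 15.9, 17.1 and 21.5 CPM in conduit libraries, against 7.79, 7.04 and 8.33 CPM in untreated libraries. It rose 2.35-fold without overlap (log2 1.23 ± 0.17, edgeR adjusted p = 0.00105). Hrh3, an inhibitory receptor of nerve endings, had 2.01, 2.12 and 4.40 CPM in conduit libraries and 2.29, 1.98 and 3.63 CPM in untreated libraries, overlapping throughout (0.11 ± 0.41, edgeR adjusted p = 0.843). Hrh2, known from stomach acid secretion, was at 0.31 ± 0.44 (edgeR adjusted p = 0.588). Mast cells are the main tissue source of histamine, and 8 mast cell markers summed to 74.5 to 176 CPM in conduit and 67.6 to 109 CPM in untreated libraries, with none at 0; 1 of the 8 rose and 0 fell.

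Per length, 8 members averaged above 1 FPKM in conduit and 11 in untreated nerves. The 11 include Chrnd, at 3.95, 0 and 0 FPKM in untreated replicates 1, 2 and 3, and Adra1d, at 0.665, 0.382 and 2.25 FPKM. Each of them passed 1 FPKM through 1 library alone. The levels in conduit nerves, among those reported, ran from Gabbr1 (79.7 FPKM) through Adra2a (6.82 ± 1.47), Grik5 (5.72 ± 0.193), Hrh1 (4.17 ± 0.802), Grik2 (3.32 ± 0.188), Htr1b (3.30 ± 0.603) to Adra2c (1.41 ± 0.501). Adra2a and Grik5 did not differ beyond their spread, nor did Grik2 and Htr1b. In untreated nerves Adra2a (10.1 ± 1.56 FPKM) followed Gabbr1, and Htr2b (2.37 ± 0.662) stood level with Grik5 (2.45 ± 0.812) and Hrh1 (2.31 ± 0.146). Htr2b was at 0.286 ± 0.0902 FPKM in conduit nerves. Summed over each class, FPKM was 80.7 ± 5.50 in conduit and 34.3 ± 5.58 in untreated nerves for GABA. Gabbr1 alone held 79.7 and 33.1 FPKM of these GABA sums, so the higher sum in conduit nerves was that of Gabbr1. For glutamate the sums were 11.6 ± 0.740 FPKM in conduit and 5.19 ± 1.01 FPKM in untreated nerves. For serotonin, where members moved both ways, the sums were 4.93 ± 0.610 FPKM in conduit and 5.29 ± 1.24 FPKM in untreated nerves. For adrenergic receptors they were 13.4 ± 2.32 and 16.2 ± 0.935 FPKM. FPKM is scaled by library total, on which the median log2 fold change of all genes was -0.428. The direction of small differences in these sums therefore depends on the scaling.

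Genes that make, move and break down the same transmitters were read from lists of their own, with a median log2 fold change of -0.0425 and 50.2% called over all genes as background. In the GABA list, 4 of 7 genes tested rose and 1 fell, with a median of 1.83. Abat, the enzyme that degrades GABA, averaged 119 ± 2.94 CPM in conduit and 12.2 ± 7.77 CPM in untreated nerves (log2 3.28 ± 0.41, edgeR adjusted p = 0.000686, and 3.94 without untreated replicate 3). Aldh5a1, the next enzyme of that pathway (1.83 ± 0.23), and the GABA transporter Slc6a13 (2.14 ± 0.40, or 2.75 without untreated replicate 3) rose. Slc6a12, a betaine and GABA transporter, fell (-1.91 ± 0.43). Gad1, which makes GABA, was at 0.367 ± 0.288 CPM in conduit and 0.488 ± 0.197 CPM in untreated nerves and did not pass (edgeR adjusted p = 0.643), and Gad2 had no count.

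The glutamate list had 1 of 9 genes higher and 1 lower, with a median of 0.0725. Gls2, a glutaminase, rose (1.44 ± 0.25), and Slc1a1, a glutamate uptake transporter, fell (-2.19 ± 0.40). In the acetylcholine list 2 of 3 genes tested rose. Prima1, the membrane anchor of acetylcholinesterase, averaged 35.9 ± 2.68 CPM in conduit and 5.02 ± 1.08 CPM in untreated nerves (2.84 ± 0.19, edgeR adjusted p = 9.03e-05). Bche, butyrylcholinesterase, rose as well (2.82 ± 0.79), though not without conduit replicate 2 (0.0515) or 3 (0.0616), without untreated replicate 3 (0.05) or with limma on unfiltered log2(FPKM + 1) (0.0588), and it was at 3.41 without untreated replicate 2. Ache itself was at -0.02 ± 0.71 (edgeR adjusted p = 0.985). In the monoamine list 3 of 11 rose and 0 fell, with a median of 0.919. Maob, a monoamine oxidase, averaged 409 ± 81.5 CPM in conduit and 72.6 ± 7.80 CPM in untreated nerves (2.50 ± 0.19, edgeR adjusted p = 0.000114). Maoa (0.92 ± 0.19, but not past the threshold with library totals, 0.0605, or with limma on unfiltered log2(FPKM + 1), 0.0846) and the uptake carrier Slc22a3 (2.62 ± 0.54, or 3.46 without untreated replicate 3) rose too.

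Of 33 tested genes for partners and scaffolds of the ion-channel receptors, 17 rose and 3 fell, with a median of 0.740. The share of this list that passed was 60.6%, against 50.2% over all genes tested (24% higher and 26.2% lower). Among the partner genes with the smallest adjusted p were Tmem35a, a chaperone of neuronal nicotinic receptors (2.11 ± 0.15), and Trak1, a transport adaptor (1.08 ± 0.11). The following partners were chosen after their values were seen. Cacng4, an AMPA receptor auxiliary subunit, averaged 73.7 ± 7.64 CPM in conduit and 20.7 ± 5.33 CPM in untreated nerves (1.83 ± 0.20). Rapsn, which clusters the muscle acetylcholine receptor, averaged 28.0 ± 4.06 CPM in conduit and 3.35 ± 1.93 CPM in untreated nerves (3.06 ± 0.40). The kainate auxiliary genes moved apart, Neto1 rising (3.91 ± 0.61, with 1.02 ± 0.502 CPM in conduit and 0.0653 ± 0.0247 CPM in untreated nerves) and Neto2 falling (-1.33 ± 0.38). Neto2 did not pass without conduit replicate 2 (0.0639) or 3 (0.0613) or without untreated replicate 2 (0.0580). Of 7 receptor kinases and arrestins, which switch G protein-coupled receptors off, 0 rose and 3 fell, with a list median of -0.479. Those that fell were Grk6 (-1.35 ± 0.13), Arrb2 (-1.76 ± 0.18) and Grk2 (-0.69 ± 0.12). The share of this list that passed, 42.9%, did not exceed the 50.2% over all genes tested. None of the 5 glycine receptor genes had enough counts to be tested.

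**Figure D5:**
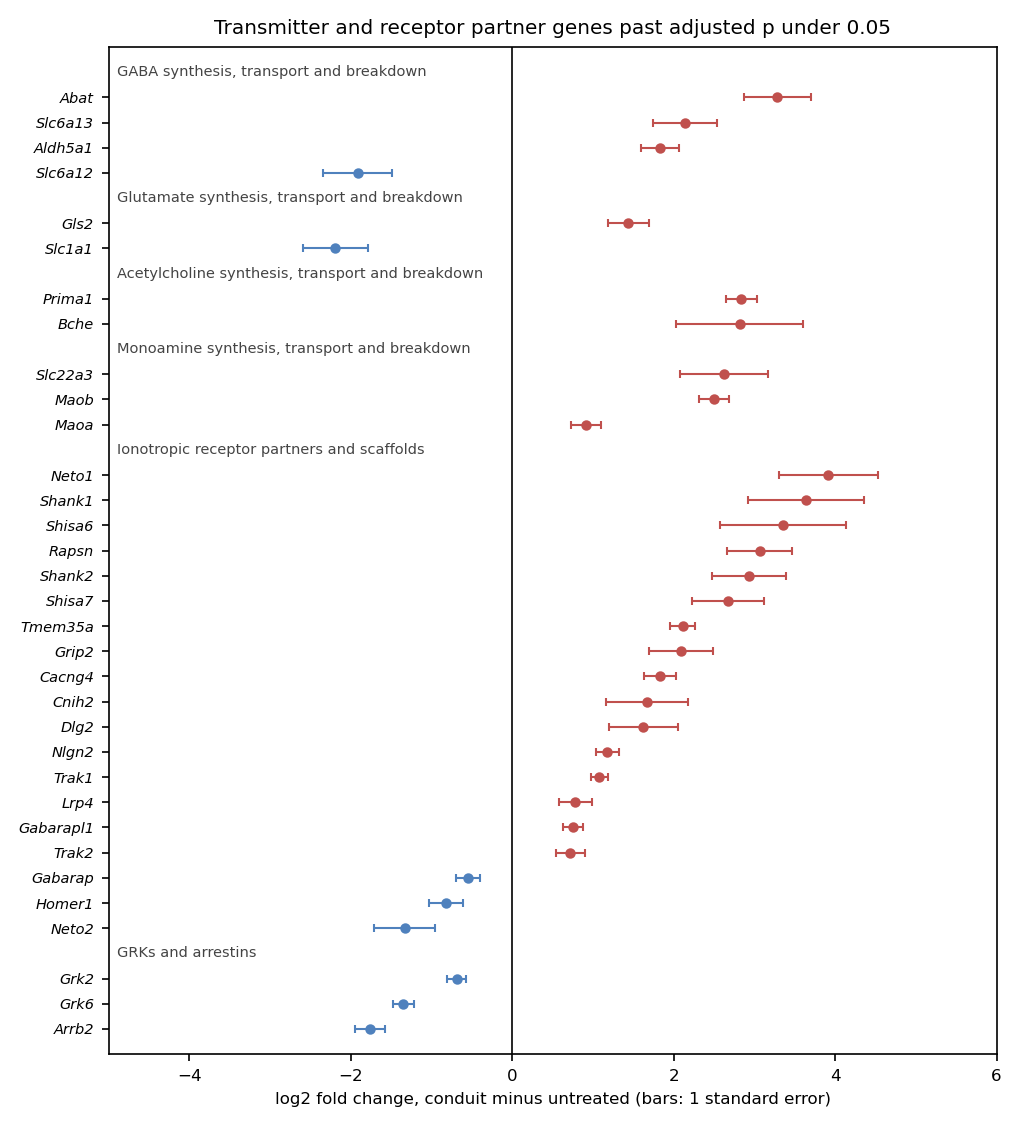
Log2 fold change of conduit over untreated nerves, with bars of 1 standard error, for 33 of the 35 transmitter and receptor partner genes that passed an adjusted p under 0.05 in edgeR, by list. Red points rose and blue points fell; Neto1 and Shank1 are the farthest to the right and Slc1a1 and Slc6a12 the farthest to the left.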

How the data were processed

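RNA from sciatic nerve was extracted with TRIzol, and mRNA was enriched for VAHTS Universal V10 libraries, per the labels' protocols. The authors deposited raw counts per gene and FPKM per library. The submitters' processing notes name fastp, HISAT2, HTSeq and DESeq2 with build mRatBN7.2 and no versions. In all 20504 genes checked, deposited FPKM equalled the count over 1 gene length and the library total, within a relative tolerance of 0.0001.

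Counts were tested with edgeR 4.0.16 in R 4.3.3 (quasi-likelihood F test, two-sided, TMM scaling, filterByExpr with a minimum count of 10, group as the only term) over 15464 genes, with Benjamini-Hochberg adjustment. The code was tested on simulated data, in which 99 of 15257 genes changed by 1 log2 unit and 100 by 2, far fewer than passed here. Of these, 39.4% and 85% were recovered, with 15 false calls. A gene that did not pass is therefore not shown to be unchanged. Standard errors are the log2 fold change over the square root of F. Alternatives used DESeq2 1.42.0, limma 3.58.1 on log2 FPKM, other scalings, filters and dispersions, a replicate block, and each library left out.

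Members and lists were chosen with earlier results of these data known. Values in every library are given for called members of 2 CPM or more and for the 2 highest by FPKM in each class. Further low members were added after their values were seen. Up to 3 called genes of 2 CPM or more are named from each transmitter list. Slc6a12, the genes at 0 and those stated were added later. A few genes that enter the counts are not reported here. Promoters were also searched for other motifs on both strands: the Sox site, ACAAAG, was in 1 of 26 described promoters and 18.8% of all, the EGR site in 1 and 1.66%, the AP-1 site in 0 and 7.33%, the cyclic AMP response element in 0 and 1.83%, and the TATA box, TATAAA, in 3 and 14.2%. Promoter sequences and gene overlaps are from the RefSeq tables of GRCr8, another build than that of the counts.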

Additional observations from a re-analysis of the deposited data

How the results depend on the processing

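Across 16 alternatives, all 21 receptor genes called with all libraries stayed on the same side of 0, and 13 of them kept their call wherever they could be tested. The other 8 (Chrm3, Adrb1, Gria2, Gria4, Grik3, Grik4, Grin2b and Htr3a) lost it under at least 1 alternative. Of the 35 called transmitter and partner genes, 25 kept their call, 10 (Bche, Maoa, Cnih2, Neto2, Shisa6, Dlg2, Homer1, Gabarap, Trak2 and Lrp4) lost it under at least 1 and 0 changed sign. Called receptors numbered 11 higher and 2 lower with a filter of 1 CPM in 3 libraries, which tested only 22 members, 10 higher with limma on filtered log2(FPKM + 1), which tested 33, and 7 lower with unfiltered log2(FPKM + 1), where the cause was not tested. Leaving out 1 library gave 13 to 17 higher and 3 to 5 lower receptors, and for all genes called 5840 to 7882. Scaling by library totals moved the median of all genes to -0.428, so fold changes on that scale lie about 0.4 lower.

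Uncalled receptors that are reported here changed sign as follows. With library totals Gria3 was at -0.043, Hrh2 at -0.074, Hrh3 at -0.259 and Chrnb2 at -0.076. With limma on log2(FPKM + 1), Gria3 was at -0.014, Hrh3 at -0.116 and Chrnb2 at -0.007, filtered or not, and Hrh2 at -0.006 unfiltered. With log2(FPKM + 0.1), Gria3 was at -0.035, Hrh3 at -0.275 and Chrnb2 at -0.035. With 1 library left out, Chrnb1 ran from -1.51 to 0.716, Adra1b from -0.056 to 0.944, Adra1d from -1.08 to 0.407, Adrb3 from -0.367 to 2.35 and Hrh3 from -0.310 to 0.414.

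The labels do not say whether replicate numbers pair the libraries. Deviations from the group mean correlated at 0.144, -0.0278 and 0.0636 for libraries of the same number. Not every library correlated best with its own number, but 3 libraries per group are too few to settle the question. With the replicate number as a block, 16 receptors were higher and 5 lower, and the count of all genes called was 7515. Members with a few counts per library limit what can be read from single values, and this depth does not show that a receptor is absent.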
